A study of Mus musculus with 19 samples.

Results

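The genes described here are 34 mouse genes of fatty acid oxidation in mitochondria and peroxisomes, taken by their listed symbols from the gene-name columns of 3 tables of expression values. All 34 were found among the 55573 genes of a table of 7 tissues and among the 55487 genes of a table of brown adipose tissue (BAT), and 33 among the 13756 genes of a table of inguinal white adipose tissue (iWAT), where Acox2 has no line. By role, 7 belong to the carnitine shuttle or regulate it, 6 are acyl-CoA dehydrogenases, 3 pass electrons on, 5 carry out the later steps of the mitochondrial cycle, 3 handle double bonds, 7 are peroxisomal and 3 are thioesterases. The 7 tissues came from C57BL/6J wild-type mice on chow diet, with 1 library for each of heart, tibialis anterior (TA) muscle, brain, liver, white adipose, brown adipose and small intestine. BAT and iWAT came from WT and MCK-Musclin male mice on chow diet, 5 months old, that had all been kept at 8 °C for 1 week, with 3 mice per genotype in each depot. MCK-Musclin mice carry the coding sequence of Musclin (Ostn), a peptide secreted by muscle, under the promoter of muscle creatine kinase, which is active in striated muscle and not in adipocytes. Several founder lines of the transgene were made and crossed back to C57BL/6J, and the labels do not say which line was sequenced. The adipose libraries ask whether the muscle transgene goes with other expression in cold-exposed fat, and all of them come from cold-exposed mice. The white and brown adipose of the 7 tissues carry no cold treatment in the labels.

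In β-oxidation, a fatty acid is bound to coenzyme A and, where it is long, is carried into mitochondria as an acylcarnitine. There, each turn of the cycle shortens the chain through a dehydrogenation, a hydration, another dehydrogenation and a thiolytic cleavage, and the electrons go to the respiratory chain. Peroxisomes shorten very long, branched and dicarboxylic chains with their own enzymes. Brown fat and heart are known for intense mitochondrial oxidation, and brown fat burns the fuel for heat.

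Expression was given as FPKM, the number of sequenced fragments of a gene scaled to its exon length and to the size of the library, which allows levels of different genes to be set side by side. FPKM hold no read counts, so the depth behind a value is unknown and no interval for counting error is given. The FPKM of a library summed to between 364710 and 384100 in iWAT, between 676360 and 720850 in BAT and between 393680 and 711440 in the tissues, and the 10 most abundant genes held 11.9–13.0% of that sum in iWAT but 48.4–51.3% in BAT, so a level in 1 table is not on quite the same scale in another. Marker genes of adipocytes, brown fat, fast muscle, heart, liver, small intestine and brain each had their highest sum in the tissue so labelled. Ostn was at 0 in the 3 BAT libraries of WT mice and at 37.9, 31.6 and 30.4 FPKM in those of MCK-Musclin mice. In iWAT it was at 0, 0 and 0.225 FPKM in the WT libraries, and in the libraries labelled MCK-Musclin at 0, 5.17 and 4.21 FPKM, so that the library labelled MCK-Musclin 1 lacks the transcript that the other MCK-Musclin libraries of both depots have. Fast skeletal muscle markers, of the tissue in which the transgene is active, summed to 20.6 FPKM in that iWAT library and to 183 and 213 FPKM in MCK-Musclin 2 and 3. With so few fast muscle transcripts, an Ostn of 0 cannot tell the genotype of that library either way. Its genotype thus rests on the label alone and is not settled, and MCK-Musclin 1 of iWAT stands for the library so labelled throughout.

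Across the 7 tissues, brown adipose held the most fatty acid oxidation transcripts and brain the fewest. The 34 genes summed to 7193 FPKM in brown adipose, or 1.01% of the library's FPKM, to 3846 FPKM (0.568%) in heart, to 2655 (0.476%) in liver, to 1701 (0.405%) in white adipose, to 1308 (0.26%) in small intestine, to 1294 (0.222%) in TA muscle and to 327 (0.0832%) in brain. The highest level of a gene was in brown adipose for 16 of the 34, in liver for 10, in heart for 4, and in TA muscle, brain, white adipose and small intestine for 1 each. The lowest was in brain for 23 and in TA muscle for 7. There were no replicates in this table, so differences between tissues that are close in this order cannot be judged against any spread.

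**Figure D1:**
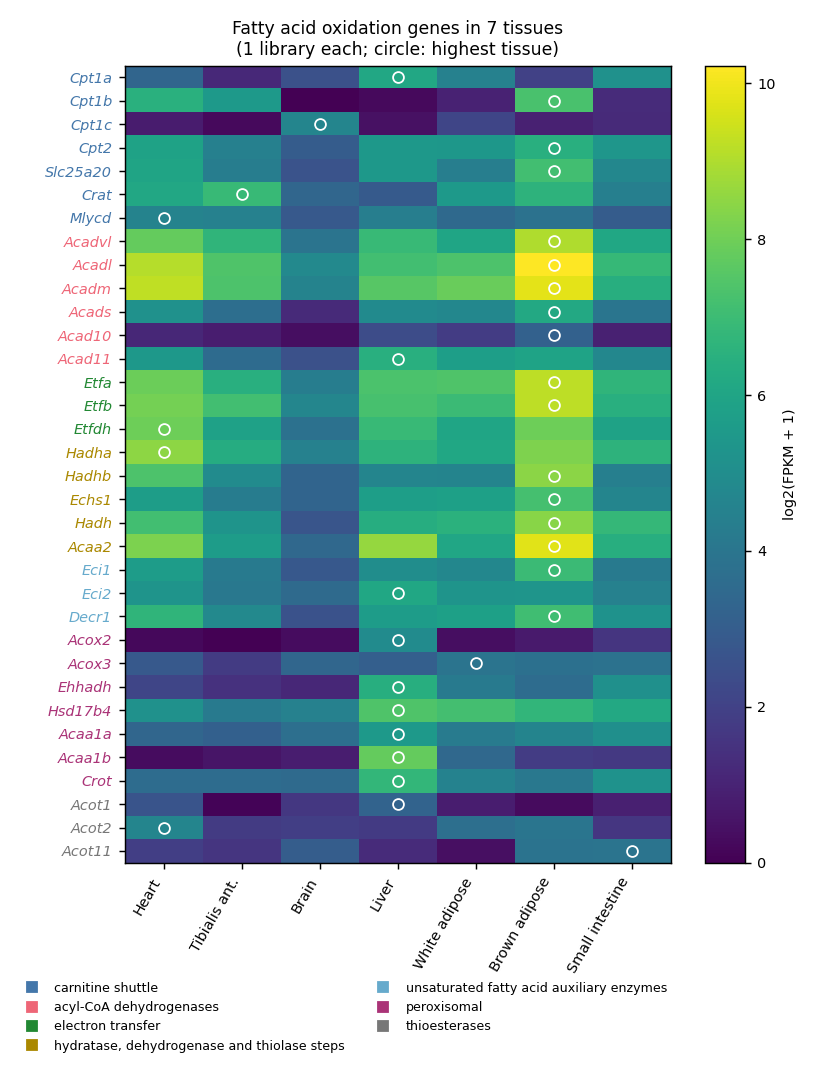
Expression of the 34 fatty acid oxidation genes in 7 tissues as log2(FPKM + 1), with 1 library per tissue, genes as rows coloured by role and a circle at each gene's highest tissue. The circles of 16 genes, mostly of the mitochondrial cycle, lie in brown adipose, and those of 6 of the 7 peroxisomal genes lie in liver.

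The acyl-CoA dehydrogenases open the mitochondrial cycle on chains of different length. Acadl, the long-chain enzyme, was the gene with the highest level of the 34 in brown adipose (1200 FPKM), TA muscle (170), small intestine (116) and brain (27.1). Acadm, the medium-chain enzyme, was highest in heart (616 FPKM) and in white adipose (238). The leading gene was thus Acadl or Acadm in 6 of the 7 tissues, and in liver it was Acaa2, the mitochondrial thiolase, with 394 FPKM. Acadvl, the very-long-chain enzyme, had 513 FPKM in brown adipose and 223 in heart against 14.2 in brain. Acad10 did not exceed 7.93 FPKM in any tissue, while the related Acad11 had its highest level, 87.3 FPKM, in liver.

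Electron transfer flavoprotein takes the electrons from these dehydrogenases, and its subunits Etfa and Etfb had near-equal levels in brown adipose, 598 and 600 FPKM, and in heart, 245 and 270 FPKM. Etfdh, which hands the electrons to ubiquinone, was alike in heart (253 FPKM) and brown adipose (249). Peroxisomal genes ran in another order from the mitochondrial ones. They made up 25.1% of the summed FPKM of the 34 genes in liver, 17.0% in brain, 14.7% in small intestine and 13.2% in white adipose, but 3.14% in TA muscle, 2.41% in brown adipose and 1.7% in heart. Ehhadh, the peroxisomal L-bifunctional enzyme, had 85.0 FPKM in liver and 11.3 in brown adipose. Crot, which makes carnitine esters of the shortened chains, had 108 FPKM in liver and 36.3 in small intestine. Acox3, an oxidase for branched chains, was among the flattest of the group, from 2.45 FPKM in TA muscle to 14.2 in white adipose.

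In 3 genes the highest tissue exceeded the next by more than 5 times, with 0.1 FPKM added to each value. Acaa1b, a peroxisomal thiolase, had 223 FPKM in liver, 21.9 times the 10.1 FPKM of white adipose. Acox2, the oxidase of bile acid intermediates, had 29.4 FPKM in liver, 14.1 times the 2.00 FPKM of small intestine. Cpt1c had 24.2 FPKM in brain, 7.03 times the 3.35 FPKM of white adipose.

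Cpt1 enzymes make acylcarnitines at the outer mitochondrial membrane and are held back by malonyl-CoA. Cpt1a is known as the liver type, Cpt1b as the muscle type and Cpt1c as a brain form that lies in the endoplasmic reticulum. Between each pair of them, 65.7–69.0% of the aligned coding bases were identical in the GRCm38 annotation, so reads of the 3 are readily told apart. Cpt1b (chr15:89416405-89425863, minus strand) has another ambiguity, since 81.4% of its exon bases are also exon bases of Gm44502, a gene model on the same strand that the annotation places over it, and how reads were shared between them is not known. Cpt1a made up 99.2% of the summed Cpt1 FPKM in liver, 92.9% in small intestine and 83.2% in white adipose, Cpt1b 97.6% in brown adipose, 96.8% in TA muscle and 90.2% in heart, and Cpt1c 83.6% in brain. In brown adipose Cpt1b stood at 154 FPKM and Cpt1a at 2.95, while in white adipose Cpt1b stood at 0.963 and Cpt1a at 21.4.

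The cold-exposed depots repeated the contrast only in part. In the 6 BAT libraries Cpt1b held 96.9–98.4% of the Cpt1 FPKM. In iWAT of WT mice the share of Cpt1b was 42.9%, 42.8% and 54.2% and that of Cpt1a 50.4%, 49.9% and 40.0%. In iWAT of MCK-Musclin mice the share of Cpt1b was 37.3%, 19.7% and 7.77% and that of Cpt1a 56.4%, 70.7% and 80.8%. The shares of Cpt1b do not overlap between the genotypes, but MCK-Musclin 1 lies within 6 percentage points of WT 1 and WT 2, and an exact permutation test of 3 against 3 libraries cannot give a two-sided p below 0.1.

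**Figure D2:**
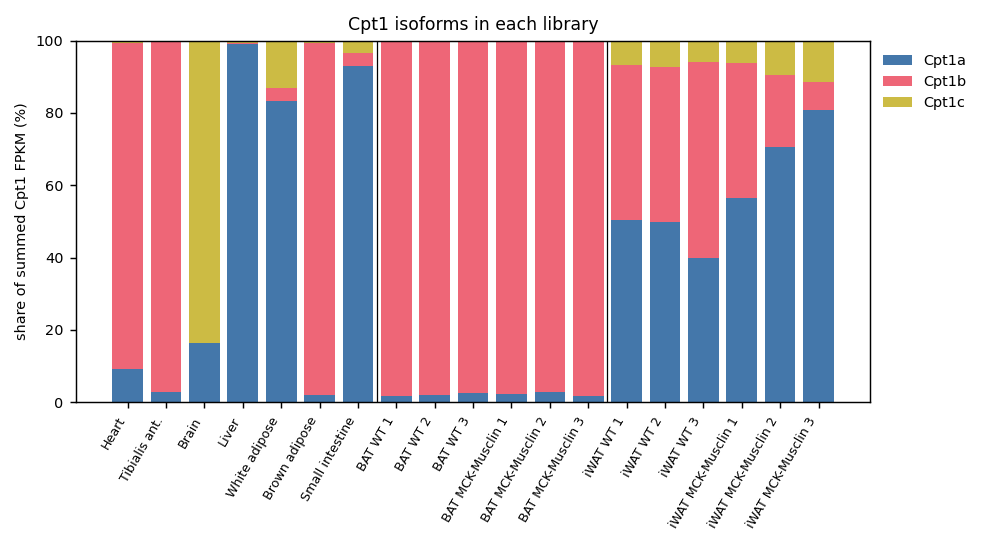
Share of Cpt1a, Cpt1b and Cpt1c in their summed FPKM (%, stacked bars) in each of the 7 tissue libraries and the 12 adipose libraries. Cpt1b fills more than 96% of every BAT bar, and in iWAT its part runs from 54.2% in WT 3 to 7.77% in MCK-Musclin 3.

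The peroxisomal thiolases Acaa1a and Acaa1b are a recent copy of each other. They lie on chromosome 9 and have 1272 coding bases each, of which 96.5% are identical, and 24.1% of all stretches of 100 coding bases are the same in both. A read of such a stretch cannot be assigned to 1 of the pair, so their levels are uncertain to that extent. The following 90 coding bases (460 to 549, counted from the start codon, GRCm38) hold the most differences, 13, which are in capitals, and show what tells the transcripts apart.
Acaa1a: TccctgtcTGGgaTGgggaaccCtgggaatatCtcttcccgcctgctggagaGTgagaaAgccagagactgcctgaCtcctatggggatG
Acaa1b: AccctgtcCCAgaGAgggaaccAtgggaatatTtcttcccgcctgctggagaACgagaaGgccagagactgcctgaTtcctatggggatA
The longest run without a difference is 327 bases. The levels of the pair nevertheless went apart between tissues. Acaa1a was at 43.9 FPKM in liver and at 7.81 to 32.7 FPKM in the other tissues, whereas Acaa1b had 93.1% of its summed FPKM in liver and was at 0.281 FPKM in heart.

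Acot1 and Acot2, which lie side by side on chromosome 12, split acyl-CoA into free acid and coenzyme A, Acot1 in the cytosol and Acot2 in mitochondria. Over the 1236 coding bases that align, 95.6% are identical. The annotated Acot2 coding sequence begins with 123 bases that have no counterpart in Acot1, shown in capitals with the bases that follow, and Acot2 is known to carry its mitochondrial targeting signal at this end.
Acot2: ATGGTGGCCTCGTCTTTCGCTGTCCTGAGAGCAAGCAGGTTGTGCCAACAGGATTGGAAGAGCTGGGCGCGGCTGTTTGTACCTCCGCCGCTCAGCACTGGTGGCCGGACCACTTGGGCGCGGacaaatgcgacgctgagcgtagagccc
Of the stretches of 100 coding bases, 31.0% of those of Acot1 are also in Acot2. Acot1 was highest in liver (8.68 FPKM) and heart (5.38), and Acot2 in heart (24.5) and brown adipose (14.8). Acot11, a thioesterase of brown fat with its own lipid-binding domain, had 13.8 FPKM in brown adipose, 14.4 in small intestine and 0.322 in white adipose.

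On the FPKM scale, cold-exposed WT BAT had more of most of these transcripts than cold-exposed WT iWAT. The tables were made separately, so the depots were set side by side without a test. Every BAT library was above every iWAT library for 26 of the 33 genes in both tables, against 9.31% of the 12218 genes that reach 1 FPKM on average in either depot. Every BAT library was below for 4, Cpt1a, Cpt1c, Acox3 and Crot, against 74.0% of those genes, and Ehhadh, Acaa1a and Acaa1b overlapped. The median ratio of BAT to iWAT was 2.33 over the 33 genes and 0.493 over all such genes. With FPKM rescaled to the same sum in every library (TPM), BAT was above for 17 of the 33 and the median ratios were 1.2 and 0.253. The share of all genes with every BAT library above in TPM was not computed.

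Acot11 differed most, at 121, 134 and 130 FPKM in WT BAT and 3.20, 4.16 and 3.86 FPKM in WT iWAT, a ratio of 33.4. Cpt1b followed, at 134, 129 and 120 FPKM in BAT and 7.51, 10.7 and 15.3 FPKM in iWAT, a ratio of 11.4. In the 7 tissues their ratios of brown to white adipose were 33.0 and 145, and Cpt1b had its highest level in brown adipose but Acot11 in small intestine. Acadvl had a ratio of 5.47, Acaa2 of 4.91, Slc25a20, the carnitine-acylcarnitine carrier of the inner membrane, of 4.68, and Hadhb of 4.42. Cpt1a ran the other way, at 2.60 ± 0.457 FPKM (SD, n = 3) in BAT and 10.8 ± 1.85 FPKM (SD, n = 3) in iWAT. Of the 33 genes, 28 had the higher FPKM on the same side, brown or white, as in the 7 tissues. The share of all genes that do so was not computed.

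**Figure D3:**
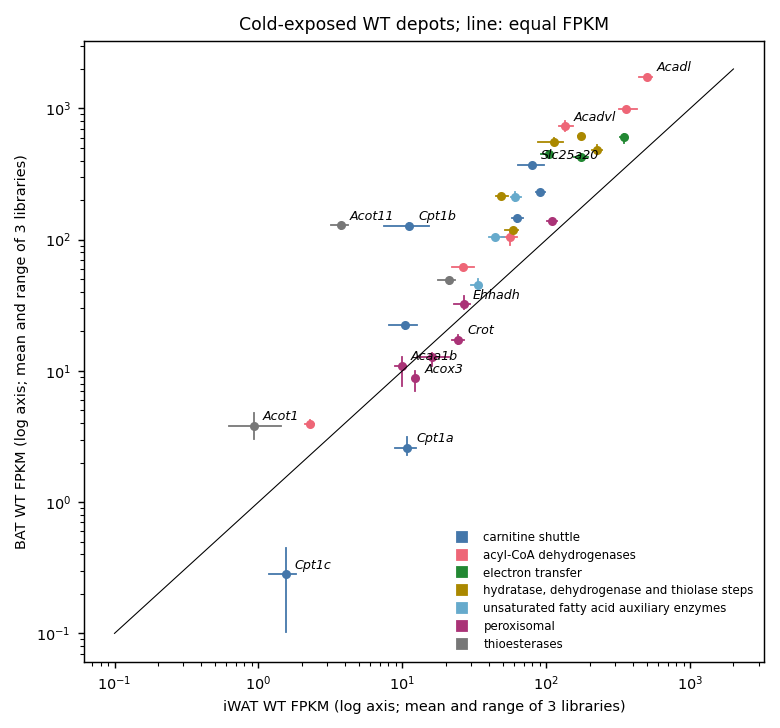
FPKM in cold-exposed WT BAT against cold-exposed WT iWAT on log axes, with the mean (point) and the range of 3 libraries (bars) of 33 genes, coloured by role, and a line at equal FPKM. Most mitochondrial genes lie above the line, Acot11 and Cpt1b farthest, and Cpt1a and Cpt1c lie below it.

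In iWAT, fatty acid oxidation genes had lower values in the libraries labelled MCK-Musclin than in those labelled WT, but none of them passed the test after adjustment over all genes. The 33 genes summed to 2697, 2953 and 3203 FPKM in the WT libraries and to 2626, 2048 and 1928 FPKM in the MCK-Musclin libraries. MCK-Musclin 1 lies just under the lowest WT library and MCK-Musclin 2 and 3 far under it. Of the 34, 32 genes had a mean of at least 1 FPKM over the 6 libraries and were tested with limma on log2(FPKM + 1), Acot1 being too low. The log2 fold change was below 0 in 30 of the 32, with a median of −0.35, against 38.7% of all 12197 genes tested and a median of 0.06. At an adjusted p under 0.05, limma called 0 of the 32 and 0.0% of all genes, with a smallest adjusted p of 0.173 among the 32. At an unadjusted p under 0.05, 20 of the 32 were lower, against 3.44% of all genes, and 1 was higher, against 13.1%. The MCK-Musclin libraries all lay below the lowest WT library in 14 of the 32, against 5.44% of all genes, and all above the highest in 1, against 17.9%.

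The count of 20 rests on particular libraries. It was 5 without WT 3, 5 without MCK-Musclin 2, 5 without MCK-Musclin 3 and 12 without WT 2, and it was 20 and 21 without WT 1 and MCK-Musclin 1. The share of all genes that were lower was 2.7%, 3.33%, 2.26%, 2.68%, 4.04% and 3.77% in these fits, in the same order. Without MCK-Musclin 1, whose genotype is not settled, 29 of the 32 were below 0 with a median of −0.46. When each library was centred on general adipocyte markers, 1 gene was lower and 25 of the 32 were below 0, with a median of −0.16, while the median of all genes moved from 0.06 to 0.25 and the share of all genes that were lower from 3.44% to 0.32%. The centring shifts every gene alike, so the median of the members minus that of all genes stayed at −0.42. Of the 2012 genes of the whole table at an unadjusted p under 0.05, 79.1% were higher in MCK-Musclin, and this was 64.8% in TPM, 55.6% after median-ratio scaling, 57.4% after quantile normalization and 99.0% after the centring. With the median-ratio, quantile and TPM scaling, 24, 23 and 23 members were lower, and the share of all genes that were lower rose as well, to 6.78%, 6.46% and 5.14%.

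Marker genes of adipocytes and of other cells differed between the same libraries. The 11 brown and beige fat markers tested summed to 586, 919 and 1088 FPKM in WT and to 656, 233 and 122 FPKM in MCK-Musclin iWAT. At an unadjusted p under 0.05, 7 of them were lower, against 3.44% of all genes. The 12 general adipocyte markers were all below 0, with a median of −0.17 and 2 lower at that p. Fast skeletal muscle markers summed to 18.4, 893 and 4977 FPKM in WT and to 20.6, 183 and 213 FPKM in MCK-Musclin, with 0 of 19 at that p. All 10 B cell markers, 10 of 11 T cell markers and all 5 lymph node stroma markers tested were higher at that p, against 13.1% of all genes. None of the markers tested was at 0 in every library. Of the 12 macrophage markers, 3 were higher at that p, and 9 were above 0 and 3 below. They summed to 801, 786 and 775 FPKM in WT and to 1093, 781 and 1116 FPKM in MCK-Musclin. B cell markers summed to 163–315 FPKM in WT and to 357–464 FPKM in MCK-Musclin, T cell markers to 128–178 and 246–256 FPKM, and lymph node stroma markers to 150–327 and 347–564 FPKM. The part of any of these in the lower values was not tested, and in tissue, fewer cells of a type and less RNA per cell cannot be told apart.

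**Figure D4:**
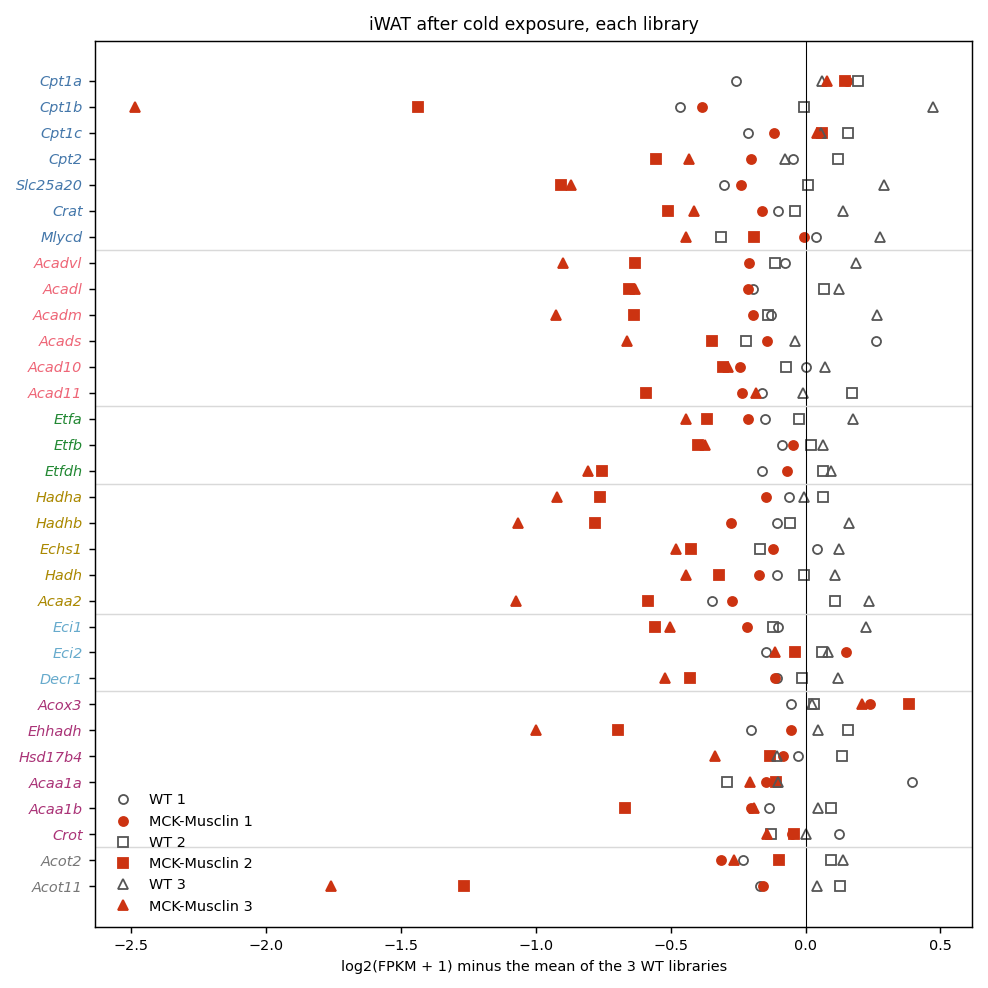
Each iWAT library's log2(FPKM + 1) minus the mean of the 3 WT libraries, for the 32 genes tested, grouped and coloured by role, with open symbols for WT and filled symbols for MCK-Musclin mice. MCK-Musclin 2 and 3 lie left of the WT libraries in most rows, and MCK-Musclin 1 lies beside the lowest WT library.

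The later steps of the mitochondrial cycle were the role with the largest share of lower genes in iWAT. At an unadjusted p under 0.05, 5 of 5 were lower, against 3.44% of all genes, and their median log2 fold change was −0.61. Hadhb, the thiolase subunit of the mitochondrial trifunctional protein, had the smallest p of the 34 genes. It stood at 44.6, 46.1 and 53.9 FPKM in WT and at 39.5, 27.6 and 22.4 FPKM in MCK-Musclin mice, with no overlap. The log2 fold change by limma was −0.71 ± 0.20 (SE), with an adjusted p of 0.173, and its unadjusted p stayed under 0.05 without any 1 of the 6 libraries. Hadha, the subunit with the hydratase and dehydrogenase sites, stood at 166, 181 and 173 FPKM in WT and at 156, 102 and 91.0 FPKM in MCK-Musclin mice, again without overlap. Its log2 fold change was −0.61 ± 0.19 (SE), with an adjusted p of 0.202 by limma. The other genes of these steps were Acaa2 (−0.64 ± 0.23), Echs1, the short-chain hydratase (−0.34 ± 0.13), and Hadh, the short-chain dehydrogenase (−0.31 ± 0.11, log2 fold change ± SE throughout).

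Hadha (chr5:30118304-30155162, minus strand) and Hadhb (chr5:30155248-30184593, plus strand) are transcribed away from each other, and 85 bases separate their starts in GENCODE. These 85 bases (chr5:30155163-30155247, GRCm38), written on the plus strand, lie between the GENCODE starts of the subunits whose transcripts were lower together. RefSeq, whose promoter sequence gave the letters, places the starts farther apart.
Hadha-Hadhb interval: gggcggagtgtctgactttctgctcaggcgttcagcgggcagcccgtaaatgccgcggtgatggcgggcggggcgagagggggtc
G and C make up 69.4% of them. The levels of Hadha and Hadhb were not equal. Hadha was 3.72, 3.93 and 3.20 times Hadhb in WT iWAT and 3.95, 3.68 and 4.06 times Hadhb in MCK-Musclin iWAT, which overlap. In BAT the ratio was 2.79–3.02 in WT and 3.02–3.28 in MCK-Musclin mice. In the 7 tissues it ran from 2.16 in heart to 4.78 in small intestine, with the exception of brown adipose, where Hadhb was above Hadha and the ratio was 0.882.

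All 6 acyl-CoA dehydrogenases were below 0 in iWAT, against 38.7% of all genes. At an unadjusted p under 0.05, 5 were lower, against 3.44% of all genes. The MCK-Musclin libraries all lay below the WT libraries in 5 of 6, against 5.44% of all genes. Acadl stood at 439, 527 and 547 FPKM in WT and at 433, 319 and 324 FPKM in MCK-Musclin mice (log2 fold change −0.50 ± 0.16 SE, adjusted p = 0.196 by limma). Acadvl stood at 127, 124 and 152 FPKM in WT and at 115, 85.8 and 71.2 FPKM in MCK-Musclin mice (−0.58 ± 0.18, adjusted p = 0.197 by limma). For both, MCK-Musclin 1 lay less than 10% under the lowest WT library and the other MCK-Musclin libraries well under it. Exons of Dvl2 on the opposite strand cover 42.9% of the Acadvl exon bases, and the alignment did not use strand. Acadm was lower as well (−0.59 ± 0.20), as were Acad10 (−0.28 ± 0.11) and Acad11 (−0.34 ± 0.14), while Acads, the short-chain enzyme, had −0.38 ± 0.17 with overlapping libraries and a 95% interval of −0.79 to 0.02.

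Of the electron transfer genes, Etfa had −0.34 ± 0.12 and Etfdh −0.54 ± 0.20, both lower at an unadjusted p under 0.05 by limma, and Etfb had −0.27 ± 0.12 with a 95% interval of −0.57 to 0.02. Gm45233 and a microRNA gene on the same strand share 58.2% of the Etfb exon bases. Of the enzymes that deal with double bonds, Eci1, which shifts them, stood at 40.6, 40.0 and 51.1 FPKM in WT and at 37.4, 29.3 and 30.5 FPKM in MCK-Musclin mice, with no overlap (−0.43 ± 0.14, adjusted p = 0.21 by limma). Decr1, which reduces dienoyl-CoA, was at −0.35 ± 0.13. Eci2 did not share this, with 30.0, 34.8 and 35.4 FPKM against 37.1, 32.4 and 30.7 FPKM and a log2 fold change of −0.0011 (95% interval −0.26 to 0.26).

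In the carnitine shuttle, 4 of 7 genes were lower at an unadjusted p under 0.05, against 3.44% of all genes. Cpt2, which returns acyl groups to coenzyme A inside mitochondria, stood at 86.8, 97.6 and 85.2 FPKM in WT and at 77.9, 60.8 and 66.2 FPKM in MCK-Musclin mice, without overlap (−0.40 ± 0.12, adjusted p = 0.19 by limma). Like Hadhb and Acadvl, it kept an unadjusted p under 0.05 without any 1 library, and these were the 3 that did. Only the 21 members past that p with all libraries were followed, and the share of all genes that do so was not computed. Slc25a20 stood at 63.6, 79.2 and 96.4 FPKM in WT and at 66.5, 41.4 and 42.6 FPKM in MCK-Musclin mice, where MCK-Musclin 1 lies among the WT libraries (−0.67 ± 0.22, adjusted p = 0.211 by limma). Crat, which makes acetylcarnitine, stood at 58.0, 60.6 and 68.7 FPKM in WT and at 55.5, 43.4 and 46.4 FPKM in MCK-Musclin mice, just without overlap (−0.36 ± 0.12, adjusted p = 0.219 by limma).

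Cpt1b had the largest log2 fold change of the 34 genes and the widest error. It stood at 7.51, 10.7 and 15.3 FPKM in WT and at 7.99, 3.34 and 1.10 FPKM in MCK-Musclin mice, so MCK-Musclin 1 was above WT 1 and MCK-Musclin 3 was lowest (−1.44 ± 0.50, adjusted p = 0.228 by limma). The order of the libraries was the same as that of Ucp1, the uncoupling protein of thermogenic fat, at 130, 248 and 346 FPKM in WT and 173, 31.6 and 2.92 FPKM in MCK-Musclin mice. Acot11 followed a like course, at 3.20, 4.16 and 3.86 FPKM in WT and 3.24, 0.965 and 0.394 FPKM in MCK-Musclin mice (−1.06 ± 0.37, adjusted p = 0.229 by limma). Cpt1a had 8.83, 12.4 and 11.3 FPKM against 12.1, 12.0 and 11.4 FPKM, with a 95% interval of the log2 fold change of −0.18 to 0.44. Cpt1c was at −0.0051 ± 0.14, and Mlycd, which removes malonyl-CoA, at −0.21 ± 0.18.

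Peroxisomal genes had a smaller median in iWAT, −0.17 over 6 genes. At an unadjusted p under 0.05, 1 was lower and 1 higher, against 3.44% and 13.1% of all genes. Acox3 was the higher one, at 11.8, 12.6 and 12.5 FPKM in WT and 14.7, 16.4 and 14.4 FPKM in MCK-Musclin mice, without overlap (0.28 ± 0.09, adjusted p = 0.221 by limma). It was not past that p after median-ratio scaling or quantile normalization, nor without WT 1, without MCK-Musclin 2 or without both WT 3 and MCK-Musclin 1. Ehhadh was lower (−0.58 ± 0.24), at 22.9, 29.7 and 27.4 FPKM in WT and 25.5, 16.0 and 12.8 FPKM in MCK-Musclin mice. Hsd17b4, the peroxisomal D-bifunctional enzyme, Acaa1a and Crot had overlapping libraries and intervals that include 0, and Acaa1b had no overlap but an interval of −0.72 to 0.0084 (−0.35 ± 0.15).

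In BAT the same genes showed little difference between the genotypes. The 34 genes summed to 8888, 8658 and 8837 FPKM in WT and to 8120, 8675 and 8534 FPKM in MCK-Musclin mice. Cpt1c was too low to test, and of the other 33 genes limma called 0 at an adjusted p under 0.05, against 0.00918% of the 10893 genes tested, with adjusted p-values from 0.968 to 0.997. At an unadjusted p under 0.05, 0 were lower, against 2.71% of all genes, and 1 was higher, against 2.18%. The MCK-Musclin libraries all lay below the lowest WT library in 4 genes, against 5.63% of all genes, and all above the highest in 1, against 4.38%. The log2 fold change was below 0 in 28 of the 33 with a median of −0.05, against 52.3% of all genes and a median of −0.01. After centring on general adipocyte markers it was below 0 in 9 of the 33 with a median of 0.05, but the centring moved the median of all genes to 0.09 too, and the median of the members minus that of all genes stayed at −0.04. Of the 31 genes tested in both depots, the 95% interval of BAT left out the iWAT estimate for 20 and held it for 11. That count ignores the error of the iWAT estimates, has no share of all genes beside it and is no test of the depots. The BAT interval ran from −0.21 to 0.10 for Acadl, where iWAT had −0.50 with an interval of −0.87 to −0.13 that overlaps it. For Hadha it ran from −0.14 to 0.20, where iWAT had −0.61 with an interval of −1.07 to −0.16. For Etfb it ran from −0.41 to 0.07, which holds the −0.27 of iWAT, and for Hadh from −0.34 to 0.16, which holds the −0.31 of iWAT.

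The gene that was higher in BAT was Mlycd, malonyl-CoA decarboxylase, which removes the inhibitor of Cpt1 enzymes. It stood at 23.1, 20.8 and 22.7 FPKM in WT and at 24.7, 27.4 and 30.2 FPKM in MCK-Musclin mice, without overlap (0.29 ± 0.10, adjusted p = 0.968 by limma). Without WT 2, MCK-Musclin 2 or MCK-Musclin 3 its unadjusted p was no longer under 0.05. The genes without overlap below WT were Cpt2, Eci1, Eci2 and Ehhadh. Eci1 stood at 104, 107 and 104 FPKM in WT and at 82.9, 89.8 and 99.9 FPKM in MCK-Musclin mice (−0.21 ± 0.09, 95% interval −0.42 to 0.0005). Cpt2 stood at 235, 218 and 241 FPKM in WT and at 191, 217 and 211 FPKM in MCK-Musclin mice (−0.17 ± 0.08, 95% interval −0.36 to 0.03). Eci1 and Cpt2 were the genes whose MCK-Musclin libraries all lay under the WT libraries in both depots, and the share of all genes that do so was not computed. Ehhadh stood at 29.8, 29.4 and 37.2 FPKM in WT and at 28.1, 25.0 and 26.9 FPKM in MCK-Musclin mice (−0.25 ± 0.12, 95% interval −0.52 to 0.02). Eci2 stood at 41.8, 49.8 and 42.8 FPKM in WT and at 38.8, 38.6 and 39.4 FPKM in MCK-Musclin mice (−0.19 ± 0.09, 95% interval −0.41 to 0.03).

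The next smallest p-values in BAT belonged to genes whose libraries overlap. Etfb stood at 635, 640 and 542 FPKM in WT and at 524, 595 and 496 FPKM in MCK-Musclin mice (−0.17 ± 0.10). Echs1 stood at 118, 114 and 121 FPKM in WT and at 98.6, 114 and 109 FPKM in MCK-Musclin mice (−0.14 ± 0.09). Acot11, the gene with the second largest difference in iWAT, was in BAT at 121, 134 and 130 FPKM in WT and at 147, 143 and 130 FPKM in MCK-Musclin mice, with a log2 fold change of 0.12 ± 0.09. Acadvl stood at 802, 674 and 729 FPKM in WT and at 674, 677 and 691 FPKM in MCK-Musclin mice (−0.11 ± 0.08), where WT 1 is the highest library and the rest lie close. Etfa stood at 452, 406 and 424 FPKM in WT and at 361, 404 and 423 FPKM in MCK-Musclin mice (−0.11 ± 0.09). Fast skeletal muscle markers summed to 633, 888 and 557 FPKM in WT and to 2033, 923 and 1328 FPKM in MCK-Musclin BAT. Of the 19, 16 were higher at an unadjusted p under 0.05, against 2.18% of all genes. The part of these markers in the BAT values was not tested. B cell and T cell markers were below the filter in BAT, with sums of at most 1.16 and 2.55 FPKM.

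**Figure D5:**
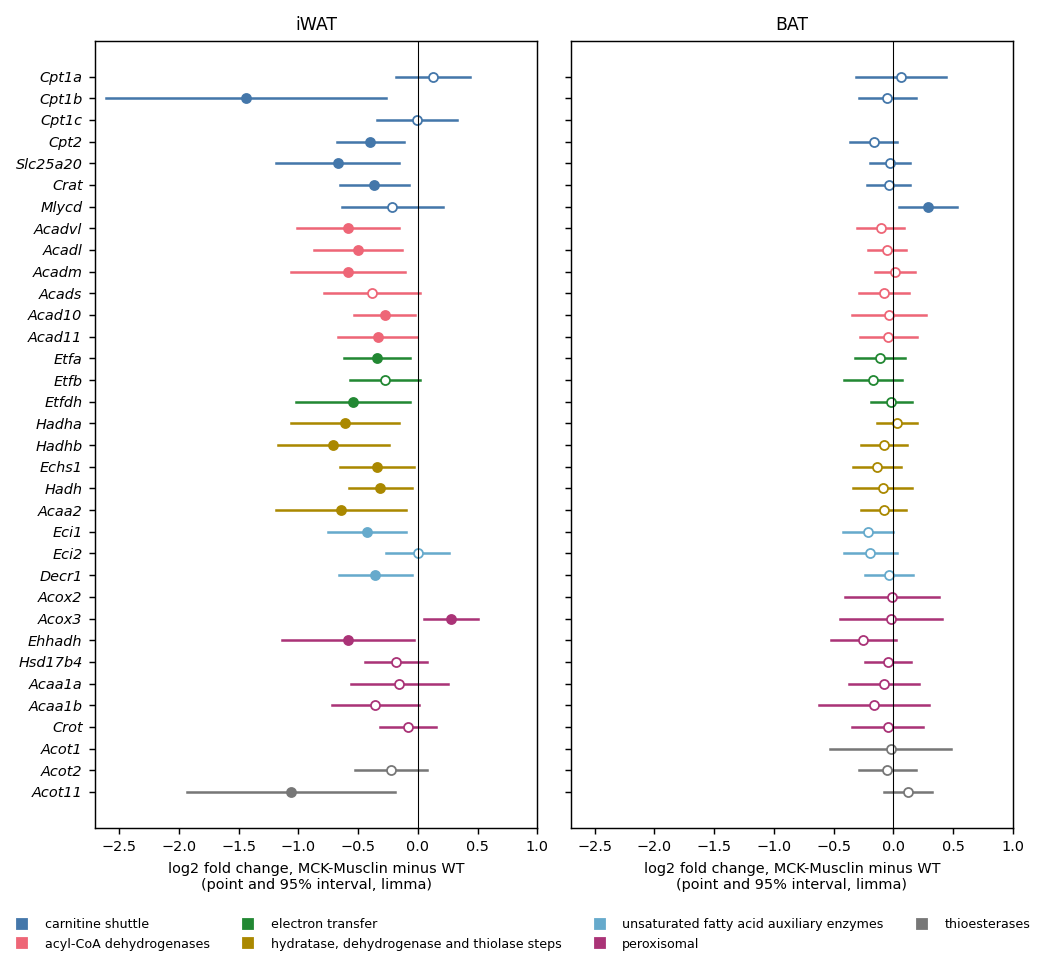
Log2 fold change of MCK-Musclin over WT mice with its 95% interval by limma in iWAT (left) and BAT (right), coloured by role, filled where the unadjusted p is under 0.05. In iWAT 20 points are filled left of 0 and Acox3 right of it, and in BAT Mlycd alone is filled, right of 0.

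The difference between the depots was not tested, since the tables were made separately. For the genes that lead in iWAT the values side by side were −0.71 in iWAT and −0.08 in BAT for Hadhb, −0.61 and 0.03 for Hadha, −0.67 and −0.03 for Slc25a20, −1.44 and −0.05 for Cpt1b, and −1.06 and 0.12 for Acot11.

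Another 50 genes of the pathway were listed as related: other oxidation enzymes, other thioesterases, enzymes of fatty acid activation and malonyl-CoA supply, peroxisomal importers and transcriptional regulators. In iWAT 46 of them were tested, and 36 were below 0 with a median of −0.17, against 38.7% of all genes. At an unadjusted p under 0.05, 5 were lower and 0 higher, against 3.44% and 13.1% of all genes, with 0 at an adjusted p under 0.05 by limma. The related genes were not followed through the fits that leave out a library. The lower ones were Abcd3, a peroxisomal importer, at 70.1 ± 10.5 FPKM in WT and 45.0 ± 10.4 FPKM in MCK-Musclin mice (SD, n = 3; −0.64 ± 0.18), Echdc3 (−0.35 ± 0.13), Acacb, a maker of malonyl-CoA (−0.44 ± 0.19), and the regulators Ppara (−0.65 ± 0.26) and Ppargc1a (−0.84 ± 0.30). Of these, Abcd3, Echdc3 and Ppargc1a had no overlap between the genotypes. In BAT 45 were tested, with a median of −0.01, and 0 were lower and 1 higher at an unadjusted p under 0.05, against 2.71% and 2.18% of all genes. The higher one was Acadsb, the dehydrogenase of short branched chains, at 34.5 ± 3.29 FPKM in WT and 48.3 ± 3.16 FPKM in MCK-Musclin mice (SD, n = 3; 0.47 ± 0.10, adjusted p = 0.929 by limma).

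Since Ppara and its coactivator are known to drive many of these genes through nuclear receptor sites, the promoters were searched for the core of such sites. The 250 bases upstream of the RefSeq start (GRCm38.p6) were read for 29 of the 34 genes, which have 31 promoters. Cpt1b, Crat, Decr1, Acaa2 and Hsd17b4 were not read. The motif AGGTCA, searched on both strands, was in 5 of the 31 (16.1%) against 14.0% of all 32851 promoters, and its direct repeat with 1 base between (DR1) was in 0 of the 31 against 0.0335% of all. The overlapping longer motif TCAAGGTCA was in 0 of the 31 and 0.387% of all, and TGACGTCA in 0 of the 31 and 1.55% of all. The motifs other than the core are so rare among all promoters that their counts of 0 say little. The share with the core motif is near that of all promoters. The 5 genes are Acadm, Acadvl, Cpt1a, Cpt1c and Echs1. The stretch around the motif is shown for Acadvl (chr11:70015490-70015569, minus strand), Echs1 (chr7:140116479-140116558, minus strand) and Cpt1a (chr19:3323153-3323232, plus strand), each read in the direction of the gene, with the motif or its reverse complement in capitals. They were picked because the former pair was lower in MCK-Musclin iWAT and the latter was not. Acadm, which was also lower, and Cpt1c, which was not, are not shown.
Acadvl: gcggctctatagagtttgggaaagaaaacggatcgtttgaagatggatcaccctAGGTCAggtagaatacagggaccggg
Echs1: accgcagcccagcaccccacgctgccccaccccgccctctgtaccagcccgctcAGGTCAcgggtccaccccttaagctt
Cpt1a: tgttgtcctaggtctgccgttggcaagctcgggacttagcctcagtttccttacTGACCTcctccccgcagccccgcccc
A match describes the letters of the window and says nothing of a factor bound there.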

How the data were processed

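Poly(A) RNA of 7 tissues (1 library each) and of BAT and iWAT from WT and MCK-Musclin mice (3 libraries each) had been sequenced. According to the study's methods, reads passed through fastp and Bowtie2 before HISAT2 placed them on mm10 (GRCm38), strand not used, and the authors deposited the FPKM that StringTie computed. The submitters' processing notes name Cuffdiff and Bowtie2 2.4.1 as well. The deposited iWAT table holds 13756 genes and the authors' own comparison from DESeq2 (log2 fold change, p-value, FDR and group means), which was not used. How its genes were selected is not given in the sources used here. Lines repeating a gene (287 in the tissue table and 287 in the BAT table) held identical values and were used once.

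Genotypes were compared within each table with limma 3.58.1 in R 4.3.3 (lmFit, eBayes with a trend) on log2(FPKM + 1), for genes whose FPKM averaged at least 1, with Benjamini-Hochberg adjustment over all genes tested. Fold changes are on this scale and understate those of low genes. The fit was tested on simulated data. Tissues were compared as ratios with 0.1 added. Tables were read with Python 3.11.15 and pandas 2.3.3, and figures drawn with matplotlib 3.10.9. Replicates are separate mice. Positions and coding sequences are of GENCODE on GRCm38, and promoters of RefSeq on GRCm38.p6. In full, with the value of every library, are described the genes with the 10 smallest p-values in a depot, those without overlap in both, the highest of each tissue and those over 5 times the next tissue. Which values of other members are printed was decided after they were seen. The 34 genes, the related genes and the marker lists were chosen with earlier results of these data known. A related gene was left out and is not reported here. Pseudocounts, filters, scalings, a replicate block, a log2 cutoff and leaving out libraries were tried as alternatives.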

Additional observations from a re-analysis of the deposited data

How the results depend on the processing

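In iWAT, 20 members were lower and 1 higher at an unadjusted p under 0.05. Centring on general adipocyte markers left 1 lower and moved their median log2 fold change from −0.35 to −0.16, and adding the log2 cutoff of 0.5 left 10 lower, against 0.902% of all genes, and 0 higher. The member that was higher was not called (0) after median-ratio scaling, after quantile normalization and without both WT 3 and MCK-Musclin 1. That last alternative was chosen after seeing the data, and under it 19 were lower, against 3.52% of all genes. Leaving out 1 library at a time gave 5 to 21 lower, against 2.26–4.04% of all genes, and 0 to 1 higher, against 9.17–13.4%. In BAT, where 0 were lower and 1 higher, 1 was lower without a filter on low values and with robust eBayes, 0 were higher with the log2 cutoff of 0.3, the median moved from −0.0502 to 0.0505 after the centring, which moved that of all genes by 0.1007 as well, and leaving out 1 library at a time gave 0 to 1 lower and 0 to 1 higher. Over all genes, leaving out 1 BAT library gave 2.37–2.9% lower and 1.7–2.73% higher. No member passed adjusted p under 0.05 by limma under any alternative. BAT was above iWAT for 26 members, and for 17 in TPM, where the median ratio was 1.2 in place of 2.33, and over that of all genes 4.74 in place of 4.72. In TPM the share of all genes above was not computed. For the 22 members at an unadjusted p under 0.05, 296 of 393 refits stayed under it, 97 did not, and 0 changed direction. The 22 were picked by that p in the same libraries, which the refits largely share, so these counts are no independent check. The same counts for all genes past that p were not computed. Same-numbered libraries of the genotypes are not paired by the labels, and their deviations correlated by 0.0615 to 0.235 in iWAT and by −0.0951 to 0.00937 in BAT. With the number as a replicate block, 14 members were lower in iWAT, against 3.92% of all genes, and 0 in BAT, against 2.66%. The highest tissue differed for 2 members in TPM and for 4 after median-ratio scaling. FPKM give no read depth, so how far depth limits low genes such as Acot1 and Cpt1c is unknown.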
